A study of Drosophila melanogaster with 12 samples.

Results

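The X chromosome of Drosophila melanogaster carried 193 genes that were strongly female-biased in control flies, of 2238 X-linked genes measured (8.62%). A gene was included when its mean level in the 3 control female libraries was at least 2 CPM (counts scaled so that each library sums to 1000000) and at least 3 times the mean of the 3 control male libraries plus 0.1 CPM. The control libraries chose the genes, so the contrast of the control sexes is given as a description only. By the same rule 576 of 11923 autosomal genes (4.83%) were female-biased. A further 809 X-linked genes had means within 1.5-fold of each other in the control sexes and are called equal here. The genes nearest the limit were l(1)G0004, CG17209 and sta inside, at 3.009, 3.046 and 3.051 times the male mean plus 0.1 CPM, and Dsp1, Nat1 and Nek2 outside, at 2.996, 2.987 and 2.981 times. All 193 passed the filter on low counts, which a gene high in females alone could pass through the female libraries.

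RNA from whole adult flies was sequenced in 12 libraries, 3 biological replicates in each of 4 groups, and all flies whose genotype is stated were y w. MSL2 females carried the insertion (w+) H83M2-6I over a normal homologue, a P-element msl2 construct marked with mini-white, and had no TM3 chromosome. Control females and control males had no construct and carried the third-chromosome balancer TM3 over a normal homologue, so that the construct and the absence of TM3 cannot be told apart in females. The fourth group was MSL2 males, for which the sources used here state neither the full genotype nor TM3; the age of the flies and the promoter of the construct are not in the labels.

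MSL2 is normally made only in males, where it completes the male-specific lethal complex, which with the roX RNAs binds the single X and raises its transcription. In females the Sex-lethal protein blocks production of MSL2, so ectopic MSL2 places the complex on both X chromosomes. Most strongly female-biased genes of whole adult flies are active in the ovary, in nurse cells that load the egg with RNA and protein or in follicle cells that build the eggshell, and the yolk protein genes are also active in the female fat body. In whole flies, fewer cells of a type and less RNA per cell cannot be told apart.

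Libraries held 27729411 to 79622278 counts. The autosomal msl-2 gene averaged 17.3 ± 1.82 CPM in control females, 32.0 ± 1.25 in control males, 518 ± 88.6 in MSL2 females and 493 ± 95.2 in MSL2 males (SD, n = 3 each), which fits the labels. The X-linked roX1 RNA was 6.38, 4.97 and 1.09 CPM in control females and 105, 130 and 117 in MSL2 females. Among the lists of tissue marker genes, 26 testis genes summed to 51.8 to 88.8 CPM in the 6 female libraries against 6144 to 7341 in males, and 13 accessory gland genes to 9.63 to 23.7 CPM against 3192 to 4923.

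In control females the 193 genes took 3.44%, 3.32% and 2.78% of all counts, against 0.289%, 0.308% and 0.288% in control males. MSL2 females gave them 1.73%, 2.60% and 3.04%, and MSL2 males 0.273%, 0.278% and 0.265%. Every female library lay above every male library, and MSL2 female 1 lay below the other 5 female libraries. The median gene was 4.77 times as high in control females as in control males. The bias was 3 to 5-fold for 103 genes, 5 to 10-fold for 42, 10 to 30-fold for 19 and at least 30-fold for 29.

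Genes with the most counts were Yp1, Yp2 and Yp3, which encode the yolk proteins, sta, a ribosomal protein, and yl, the oocyte receptor that takes yolk up. CPM is not corrected for transcript length, so levels are not compared between genes. Among genes with over 3 counts in every control male library, the highest ratios of control females to control males belonged to Cp38 and Cp36, which encode chorion proteins of the eggshell, Yp1, Yp2, and Vml, a vitelline membrane-like gene. Cp38 was 418, Yp1 302, Yp2 288 and Vml 246 times the male mean plus 0.1 CPM, and Cp36 averaged 227 CPM in control females and 0.585 in control males. At the other end stood sta at 3.05, with 2327, 2533 and 2159 CPM in control females.

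**Figure D1:**
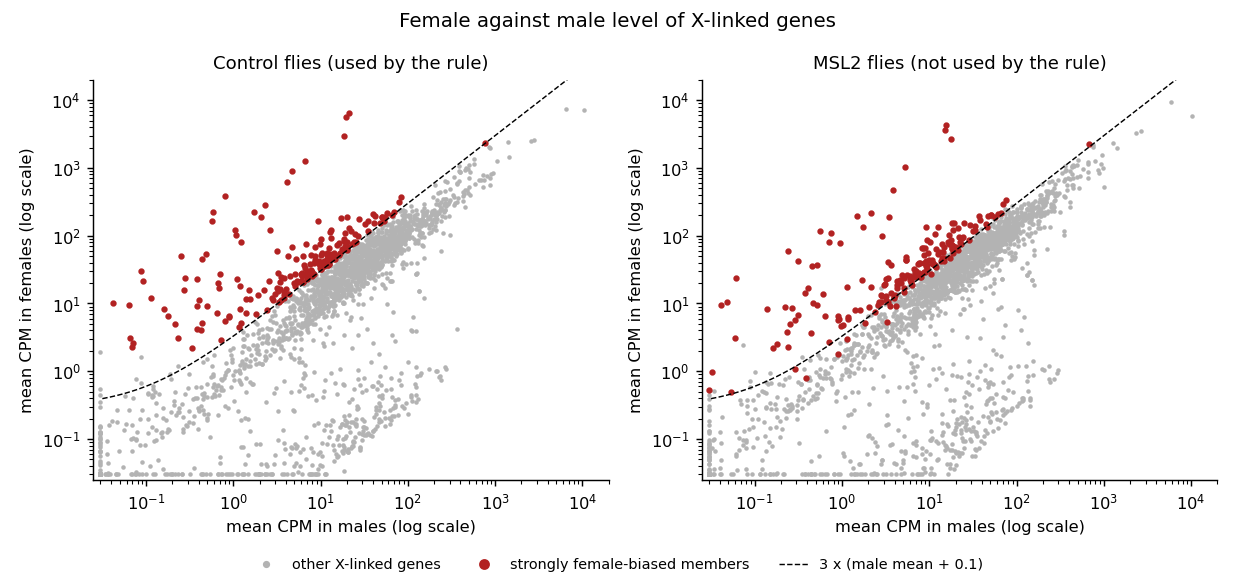
Mean CPM of X-linked genes in females against males on log axes, in control flies (left) and MSL2 flies (right), with the 193 strongly female-biased genes in red, the other X-linked genes in grey and the limit of 3 times the male mean plus 0.1 CPM dashed; means under 0.03 CPM are drawn at 0.03. In the MSL2 flies, whose libraries did not enter the limits on level and ratio, 174 of 193 red points pass the 3-fold limit. Grey points adjoin the red ones there: Nat1, just outside the rule, averaged 250 CPM in MSL2 females and 74.1 in MSL2 males.

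MSL2 females and MSL2 males were compared first, because their libraries played no part in choosing the genes. The female bias held in MSL2 flies: 186 of 193 genes were higher in MSL2 females, 0 were lower and 7 were not called (edgeR quasi-likelihood test, Benjamini-Hochberg adjusted over all genes tested). The background was 38.5% of all genes and 59.3% of X-linked genes called higher, and 31.5% of all genes called lower. The lowest MSL2 female library was above the highest MSL2 male library for 182 genes (94.3%; background 36.7% of all genes and 58.4% of X-linked genes). The median log2 difference was 2.19, and 174 genes (90.2%) remained at least 3 times the MSL2 male mean plus 0.1 CPM. Of the autosomal female-biased genes, 442 of 576 (76.7%) did so, and 559 were called higher, with a median of 2.12.

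Yp1 stood at 3418, 4216 and 5382 CPM in MSL2 females and at 13.3, 20.4 and 12.7 CPM in MSL2 males (log2 difference 8.15, adjusted p = 2.5e-09, edgeR). In dhd, a female germline thioredoxin that acts on sperm chromatin after fertilisation, MSL2 females had 147, 625 and 668 CPM and MSL2 males 4.14, 4.58 and 2.76. Its log2 difference was 6.98 (adjusted p = 6.54e-07, edgeR). The groups of both genes were far apart. TrxT, the male-biased thioredoxin gene that neighbours dhd, ran the other way, with 1, 0.902 and 1.26 CPM in MSL2 females and 205, 199 and 211 CPM in MSL2 males. Sxl, the female-determining splicing factor, was at 173, 219 and 205 CPM in MSL2 females and at 53.0, 49.4 and 51.9 CPM in MSL2 males, a log2 difference of 1.97 (adjusted p = 2.88e-10, edgeR). With the counts of all Sxl transcripts summed it was 1.35 and still called. The table lists the same counts for Sxl and CG14425, so these are 1 locus under 2 names.

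Ir7c, an ionotropic receptor gene, had the smallest log2 difference between MSL2 females and MSL2 males, 0.68 (adjusted p = 0.382, edgeR). It was at 0.387, 6.24 and 9.25 CPM in MSL2 females and at 3.43, 2.72 and 3.67 in MSL2 males, so that MSL2 female 1 lay below every male. Next came CG12716 (1.01), CG32642 (1.04) and Cp7Fb (1.12), none of which was called (adjusted p = 0.164, 0.283 and 0.239, edgeR), and Ndc80, a kinetochore gene (1.40, adjusted p = 6.26e-05). Cp7Fb, a chorion gene, was at 0.352, 12 and 15 CPM in MSL2 females and at 4.33, 4.11 and 4 in MSL2 males. The others not called were CG15721, Muc12Ea and Mur11Da.

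MSL2 females were then compared with control females, a contrast in which the construct and the absence of TM3 go together. The control females that helped choose the genes are its reference, and choosing genes for high levels there can lower their fold changes here, so the counts and medians over the genes are given as a description. The autosomal female-biased genes were chosen on the same libraries by the same rule, and the equal genes were not chosen for high female levels. Here the strongly female-biased genes had few calls: 1 of 193 rose (0.518%) and 6 fell (3.11%), by edgeR at an adjusted p under 0.05. The background was 6.62% of all genes and 22% of X-linked genes called higher, and 3.67% and 0.723% called lower. The share of rises was under that of all genes and of the X, and the share of falls was near that of all genes and above that of the X. Their median log2 fold change was -0.15, against 0.19 for all X-linked genes tested and 0.29 for the 809 equal X-linked genes, of which 308 (38.1%) rose. For the 576 autosomal female-biased genes the median was -0.30, with 3 rises and 34 falls. All 3 MSL2 females were above all 3 control females for 3 of the 193 genes (1.55%) and below for 17 (8.81%); the background was 13.2% and 11.6% of all genes, and 31.7% and 2.36% of X-linked genes.

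These counts depended on single libraries, and so did those over all genes. Without MSL2 female 1, 7 of the 193 genes rose and 7 fell, against 4.82% and 2.83% of all genes, and the median of the 193 moved from -0.15 to 0.04. Without MSL2 female 3, 3 rose and 20 fell (11.7% and 9.98% of all genes), and without control female 3, 2 rose and 12 fell (7.27% and 4.66%). With other libraries left out the rises stayed at 1. Falls became 2 without MSL2 female 2 (1.88% of all genes), 1 without control female 2 (0.984%) and 0 without control female 1 (1.4%). They became 3 without control male 1 (2.12%) or MSL2 male 3 (2.03%). Fitting the female libraries alone, without the males, left 1 rise and 0 falls (0.915% and 0.395% of all genes).

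MSL2 female 1 had the lowest of the 3 MSL2 female values for 188 of the 193 genes, and control female 3 the lowest of the control females for 178. Taken library by library, the median log2 ratio of the genes to the control female mean was -0.61, -0.02 and 0.09 in MSL2 females 1, 2 and 3, and 0.11, 0.08 and -0.17 in the control females. MSL2 females 2 and 3 therefore lay within the range of the controls and MSL2 female 1 lay below it. In the autosomal female-biased genes the medians were -0.82, -0.14 and -0.08, and in the equal X-linked genes 0.43, 0.24 and 0.21. The X-linked female-biased genes were above their autosomal counterparts by 0.21, 0.12 and 0.18 in the 3 MSL2 females. In the control females the distances were 0.01, 0.00 and 0.00, centred near 0 because the ratios are taken to the control female mean. Both classes were chosen on those control libraries, so the distances are given as a description. In equal X-linked genes the distance to the median of all autosomal genes was 0.50, 0.28 and 0.25 in MSL2 females and -0.05, -0.01 and 0.07 in control females. Its reference is all autosomal genes rather than those equal in both sexes, so it is not a like measure to the distances above.

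Ovarian and muscle markers moved with the libraries. Summed over 26 eggshell genes, of which 11 are among the 193, the level was 6258, 4975 and 3743 CPM in control females and 515, 2060 and 2931 in MSL2 females. The 46 germline and maternal genes (8 of the 193) summed to 7814, 7349 and 5669 CPM in control females and to 2868, 6288 and 6908 in MSL2 females. Over 13 muscle genes, none of them female-biased, the sums were 41568, 41848 and 56458 CPM in control females and 79903, 53411 and 48707 in MSL2 females. The 8 spermatheca genes, 0 of them among the 193, ran in another order. They summed to 474, 614 and 600 CPM in control females and to 400, 488 and 365 in MSL2 females. MSL2 female 1 was lowest in both ovarian lists and highest in muscle, but not lowest in the spermatheca list. No gene of these lists was at 0 counts in every library of a female group. Their part in the results for female-biased genes was not tested.

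**Figure D2:**
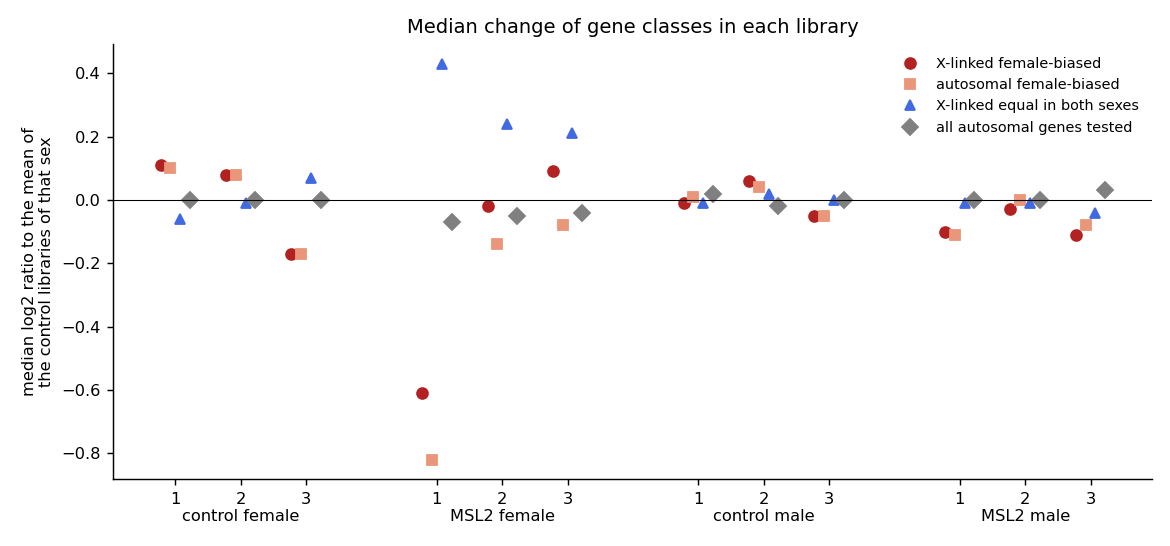
Median log2 ratio of each library to the mean of the control libraries of the same sex (y axis) for X-linked female-biased, autosomal female-biased, equal X-linked and all autosomal genes, with 1 marker per library and class. MSL2 female 1 lies lowest for both female-biased classes (-0.61 and -0.82) and highest for equal X-linked genes (0.43), and in each MSL2 female the X-linked female-biased genes lie above the autosomal ones.

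Genes with over 10-fold bias in controls had lower medians than the rest; the bias shares its control female libraries with the comparison. The median log2 fold change was -0.09 for the 103 genes with 3 to 5-fold bias, -0.16 for the 42 with 5 to 10-fold bias, -0.75 for the 19 with 10 to 30-fold bias and -0.58 for the 29 above. In autosomal female-biased genes the medians over the same ranges were -0.28, -0.26, -0.49 and -0.65. With all libraries the X-linked genes thus lay above the autosomal ones in 3 of the 4 ranges, and below them from 10 to 30-fold. MSL2 female 1 stood apart: above 30-fold the median log2 ratios of the X-linked genes to the control female mean were -1.85, -0.25 and 0.04 in MSL2 females 1, 2 and 3, and from 10 to 30-fold -1.81, -0.50 and -0.40. Without that library the medians of the fold changes were 0.06, 0.05, -0.48 and -0.30 for X-linked genes, from the weakest bias to the strongest, and -0.11, -0.09, -0.15 and -0.30 for autosomal ones. The X-linked genes then lay above the autosomal ones only in the ranges under 10-fold, and level with them above 30-fold.

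**Figure D3:**
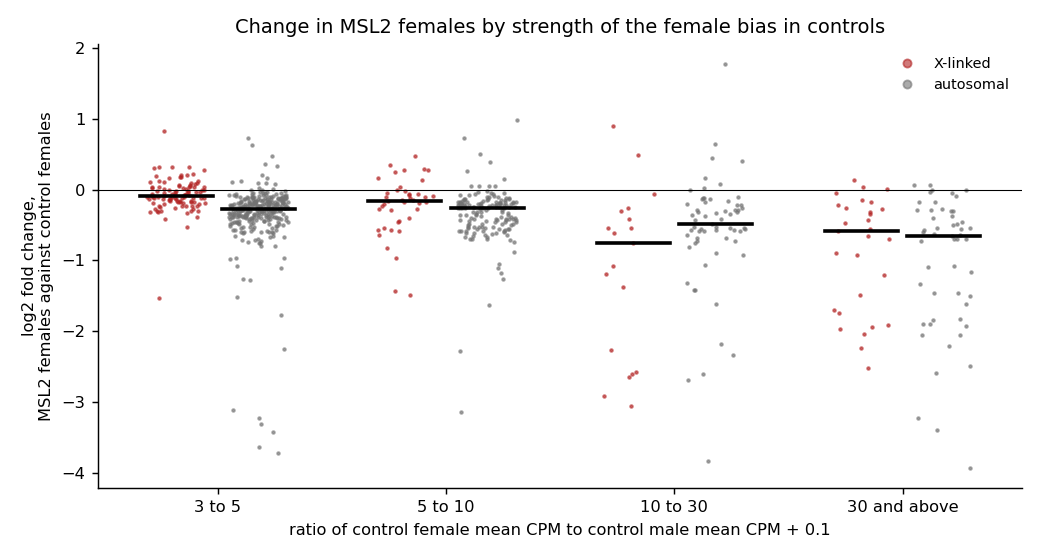
Log2 fold change of MSL2 females against control females (y axis) for X-linked (red) and autosomal (grey) female-biased genes, by the ratio of control female mean CPM to control male mean CPM plus 0.1 (x axis); each point is 1 gene, spread sideways for display, and black bars are medians. The X-linked genes with 3 to 5-fold bias crowd near 0 (median -0.09) and the X-linked values below -2 lie in the 2 ranges above 10-fold.

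CG15043, a gene without an assigned function here, was the 1 gene that rose. It was at 36.5, 43.6 and 38.3 CPM in control females and at 66.7, 79.5 and 60.7 in MSL2 females, with no overlap. Its log2 fold change was 0.82 ± 0.15 (SE, adjusted p = 0.00698, edgeR), and the call held when any 1 library was left out (0.73 to 0.92). Its direct neighbour CG15044, also female-biased, stood at 15.2, 18.2 and 14.9 CPM in control females and at 24.0, 23.9 and 18.8 in MSL2 females (0.49 ± 0.16, adjusted p = 0.0768). In males CG15043 was at 10.8, 8.77 and 12.8 CPM in controls and at 16.3, 12.9 and 15.4 with the transgene, all 3 above (0.47, adjusted p = 0.322, edgeR).

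Obp19c, of the odorant-binding protein family, was at 33, 23.1 and 13 CPM in control females and at 1.37, 7.83 and 5.42 in MSL2 females. All MSL2 females were below all controls, and the log2 fold change was -2.27 ± 0.48 (adjusted p = 0.0148, edgeR). Male levels were 0.994, 1.10 and 1.21 CPM in controls and 1.24, 0.847 and 1.03 with the transgene. The call for Obp19c was lost without control female 1 alone among the single libraries (adjusted p = 0.0575, edgeR). Like those of the other falls, it was also lost when the female libraries were fitted without the males. CG12721, which has no assigned function here, was at 8.33, 6.63 and 4.71 CPM in control females and at 1.39, 3.14 and 3.08 in MSL2 females (-1.37 ± 0.29, adjusted p = 0.0161, edgeR). Again the groups did not overlap; leaving out control female 1 or control female 2 ended the call (adjusted p = 0.0635 and 0.0568).

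A pair of genes of the trypsin-like serine protease family fell. CG32523 was at 9.01, 10.1 and 6.15 CPM in control females and at 1.51, 3.75 and 3.81 in MSL2 females (-1.48 ± 0.38, adjusted p = 0.0353, edgeR). CG1304 was at 20.2, 21.0 and 19.1 CPM against 11.7, 13.8 and 15.3 (-0.55 ± 0.13, adjusted p = 0.0283). Neither gene's groups overlapped. The call for CG32523 ended without MSL2 female 1 or 2, control female 1 or 2, control male 1 or MSL2 male 3 (adjusted p = 0.0547 to 0.124), and that for CG1304 without MSL2 female 1 or 2 or control female 1 or 2 (0.0507 to 0.112). Ser6, the protease gene beside CG1304, was at 23.2, 24.5 and 23.5 CPM in control females and at 18.6, 19.3 and 19.7 in MSL2 females (-0.29, adjusted p = 0.0873). CG2990, which is Dna2, a nuclease and helicase of DNA replication and repair, was at 13.7, 13 and 8.3 CPM against 3.34, 6.96 and 7.52 (-0.97 ± 0.26, adjusted p = 0.0373, edgeR). Its call was lost when any of 10 libraries was left out and held only without control female 3 or MSL2 female 3; in the 10 fits the log2 fold change was -1.08 to -0.69.

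**Figure D4:**
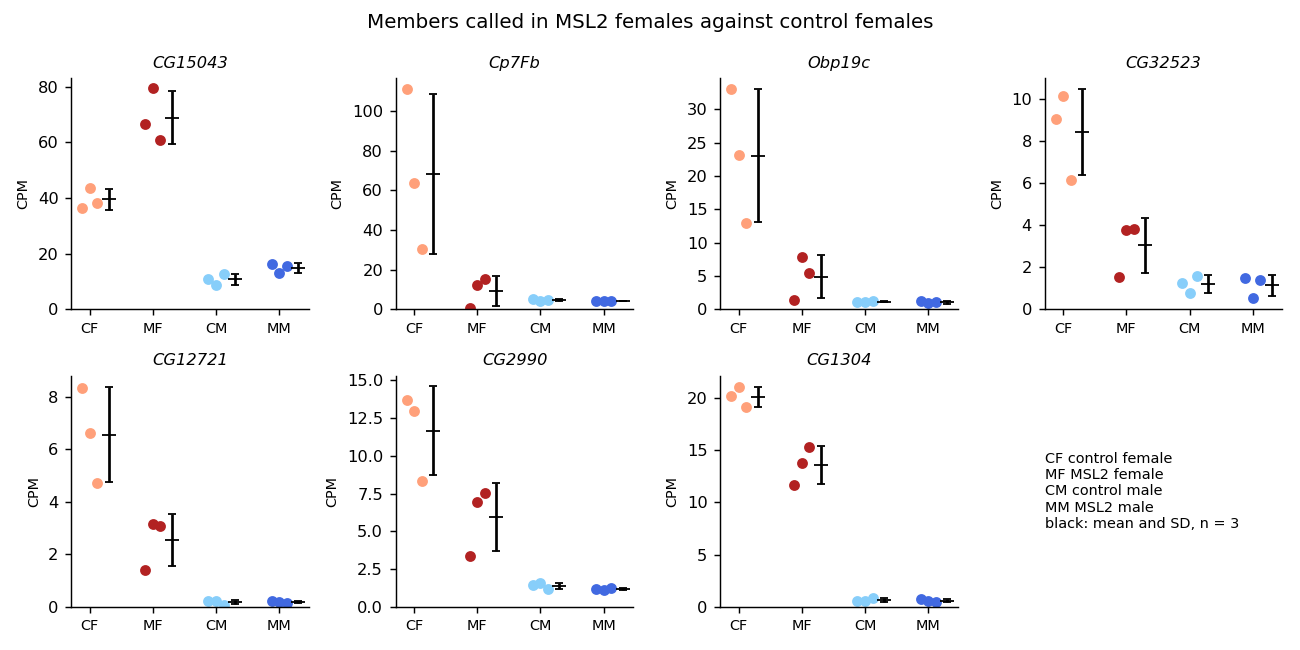
CPM of the 7 female-biased genes called in MSL2 females against control females, in each library of the 4 groups (dots) with the mean and SD of the 3 libraries (black); each panel has its own y axis from 0. CG15043 is higher in every MSL2 female than in any control female, the other 6 genes are lower, and the male libraries of all 7 lie under the control females.

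Yolk genes and their receptor were all lower on average in MSL2 females, and 0 of 4 passed the test. Yp1 was at 6694, 6780 and 5837 CPM in control females against the 3418, 4216 and 5382 of MSL2 females, and Yp2 at 5949, 5863 and 5375 against 2835, 3391 and 4590. In both genes all MSL2 females were below all controls (-0.56 and -0.66, adjusted p = 0.208 and 0.163, edgeR). Yp3 was at 3058, 3290 and 2617 CPM against 1914, 2816 and 3331, and yl at 1455, 1271 and 1024 against 445, 1179 and 1510. These groups overlapped (-0.14 and -0.26, adjusted p = 0.634 for each, edgeR), and without MSL2 female 1 the log2 fold changes were 0.03 and 0.09.

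The eggshell genes held the lowest median of the role lists, -1.96 over 11 genes, with 1 fall and 0 rises. For 5 of them all MSL2 females lay below all controls. Over all genes 3.67% fell, and 11.6% had all MSL2 females below all controls. Cp7Fb was at 111, 63.6 and 30.2 CPM in control females and at 0.352, 12 and 15 in MSL2 females (-2.92 ± 0.81, adjusted p = 0.0443, edgeR). Its call was lost when any library other than control female 3, MSL2 female 1 or MSL2 female 3 was left out, with a log2 fold change of -3.15 to -2.39 in those fits. Cp36 was at 393, 187 and 102 CPM in control females and at 0.405, 94.2 and 81.5 in MSL2 females (-1.96 ± 1.04, adjusted p = 0.227). Only MSL2 female 1 was at the level of the males, which had 0.375, 0.953 and 0.426 CPM in controls.

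The other chorion genes were also lowest in MSL2 female 1. Cp38 was at 677, 305 and 163 CPM in control females and at 0.827, 215 and 138 in MSL2 females (-1.70, adjusted p = 0.318, edgeR). Cp7Fa (-2.23, adjusted p = 0.121) and Cp7Fc (-2.52, adjusted p = 0.0806) were not called either. Earlier eggshell layers were also low in MSL2 female 1: Vml was at 172, 147 and 169 CPM in control females and at 4.13, 36.6 and 88.2 in MSL2 females (-1.93, adjusted p = 0.108). The gene listed as dec, which encodes the follicle cell protein defective chorion 1, was at 711, 558 and 590 CPM against 21.8, 207 and 330 (-1.75, adjusted p = 0.098, edgeR). Both had no overlap, and without MSL2 female 1 both were called, at -1.39 and -1.22 (adjusted p = 0.0495 and 0.00859). By contrast fs(1)N and fs(1)M3, needed for the vitelline membrane and for patterning of the embryo's ends, overlapped between groups (-0.28 and -0.22, adjusted p = 0.537 and 0.64).

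Some eggshell genes also varied within the control females. Femcoat, an eggshell component, was at 23.6, 12.2 and 0.980 CPM in control females 1, 2 and 3 and at 0.088, 6.17 and 3 in MSL2 females (-2.04, adjusted p = 0.211, edgeR). Mur11Da, a mucin-related gene, was at 5.11, 2.58 and 0.1 CPM against 0 (no counts), 1.12 and 0.353 (-2.57, adjusted p = 0.153). Control female 3 was lowest for both, and 5 of the 193 genes varied over 10-fold within control females: Femcoat, Mur11Da, CG15721, CG32642 and Muc12Ea, a set picked out after their values were seen. Among genes of at least 10 CPM in control females the widest range within MSL2 females belonged to CG15570, Cp38, Cp36 and Femcoat. CG15570 was at 50.3, 17.7 and 12.3 CPM in control females and at 0.0352, 14.4 and 14.4 in MSL2 females, where 3 counts in MSL2 female 1 correspond to 0.0528 CPM.

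Germline and maternal genes were less far from the controls: 0 of 8 were called, with a median of -0.40 and no gene without overlap. In dhd the control females had 1110, 942 and 614 CPM against the 147, 625 and 668 of MSL2 females (-0.89, adjusted p = 0.214, edgeR). The kinase gene png, needed for translation at egg activation, was at 19.9, 17.3 and 10.8 CPM against 2.96, 10.8 and 11.6 (-0.93, adjusted p = 0.139). For otu, needed for germline differentiation, the values were 216, 202 and 152 CPM against 52.0, 161 and 196 (-0.48, adjusted p = 0.372, edgeR). In all 3 genes MSL2 female 1 was far below every other female, and MSL2 females 2 and 3 overlapped the range of the controls. The other 5 were ovo, a germline transcription factor, swa, which acts in localising bicoid RNA, fs(1)Ya, a nuclear envelope protein of the early embryo, fs(1)K10, a polarity gene of the oocyte, and gd, a protease of the dorsoventral pathway. Their control and MSL2 females overlapped.

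Genes of meiosis and recombination had a median of -0.32 with 0 of 5 called, and genes of replication and division a median of -0.17 with 0 of 5 called. The lowest of the first were mei-38, a spindle protein (-0.58, adjusted p = 0.126), and mus81, a nuclease for branched DNA. The weakest was nod, a kinesin-like protein of chromosome segregation, at 35.3, 36.1 and 29.9 CPM in control females and 25, 30.4 and 33 in MSL2 females (-0.18, adjusted p = 0.242, edgeR). Mcm3, a subunit of the replicative helicase, was at 55.6, 54.6 and 39.2 CPM against 23.8, 42.3 and 44.8 (-0.42, adjusted p = 0.194). All 10 genes overlapped between control and MSL2 females.

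Among ribosome assembly genes, a list drawn up after their values were seen, the median was 0.07 over 13 genes and 0 were called. Nmd3, an export adaptor of the large subunit, was at 78.3, 87.2 and 76.7 CPM in control females and at 79.9, 107 and 104 in MSL2 females, where MSL2 female 1 overlapped the controls (0.28 ± 0.08, adjusted p = 0.0599, edgeR). Rbm13 was at 58.9, 57.2 and 49.7 CPM against 47.4, 76.3 and 71.6 (0.25, adjusted p = 0.255). Without MSL2 female 1 these 2 were called higher, at 0.37 and 0.41 (adjusted p = 0.00588 and 0.0301), and the median of the list was 0.18. Chaperonin and synthesis genes (5, median -0.06), nuclear pore genes (3, median -0.07) and chromatin and transcription genes (10, median -0.16), lists drawn up in the same way, had 0 calls. Within the last, Caf1-180, a histone chaperone subunit, was at 87.4, 82.6 and 56.1 CPM in control females and at 25.4, 54.9 and 66.4 in MSL2 females (-0.62, adjusted p = 0.143). Sxl was at 199, 188 and 173 CPM in control females, which overlapped the MSL2 females (0.10 ± 0.07, adjusted p = 0.341).

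**Figure D5:**
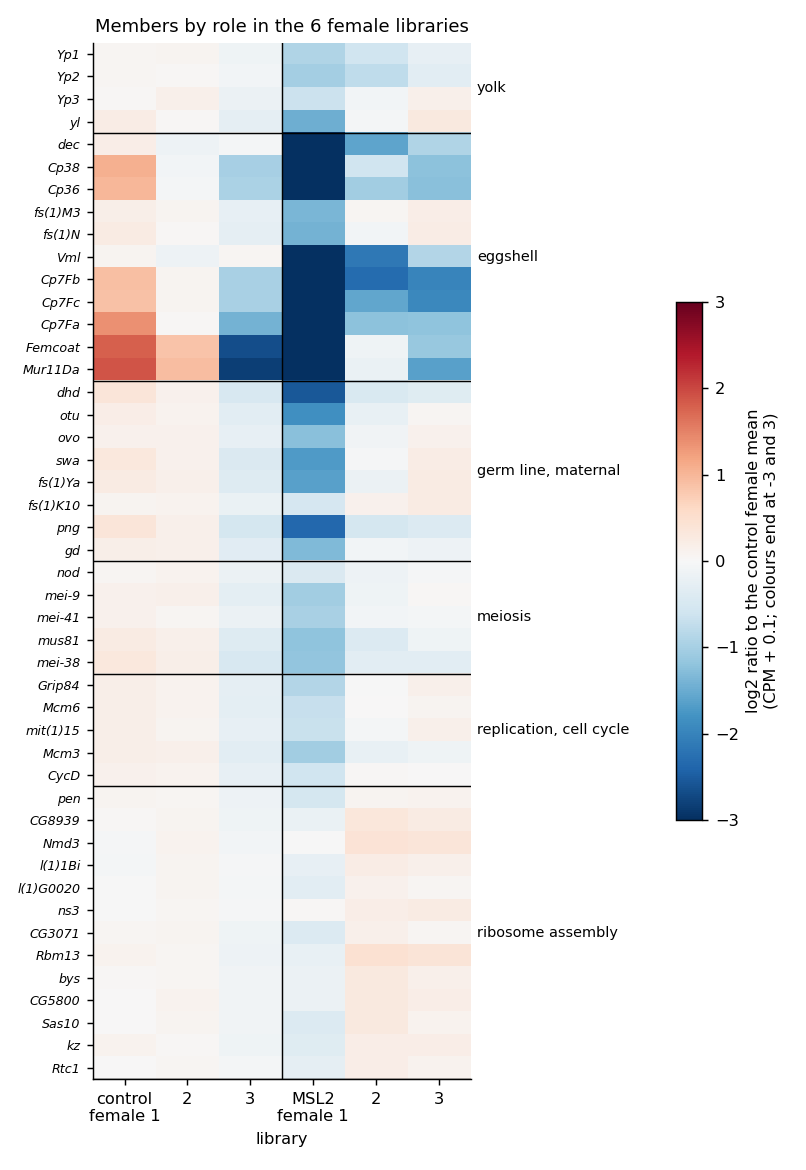
Log2 ratio of CPM plus 0.1 to the mean of the control females (colour, cut at -3 and 3) for female-biased X-linked genes on the role lists (rows, grouped by role) in the 6 female libraries (columns). The eggshell rows are darkest in MSL2 female 1, Femcoat and Mur11Da are also low in control female 3, and the ribosome assembly rows are pale in all 6 libraries.

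The role lists also hold genes that are not female-biased or not X-linked. Of 26 eggshell genes, 4 fell and 0 rose in MSL2 females (median -1.83), and 9 fell without MSL2 female 1. Over all genes 3.67% fell and 6.62% rose, and without that library 2.83% fell and 4.82% rose. Of 46 germline and maternal genes 1 rose and 1 fell (median -0.36), of 22 meiosis genes 0 were called (-0.23), and of 41 replication and cell cycle genes 1 fell (-0.42). Without MSL2 female 1 these medians were -0.07, -0.06 and -0.15, with 1 rise and 1 fall among germline and maternal genes and 0 calls in the other 2 lists, and the eggshell median was -1.30.

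Neighbouring genes were often female-biased together. Placed in the order of X-linked genes of the later Release 6 annotation, 71 of 189 (37.6%) had another of the 193 as a direct neighbour, and such genes held 80 of the 378 neighbouring positions (21.2%), while they make up 8.66% of the 2182 X-linked genes placed. Because 96 of the gene spans overlap another annotated gene and the use of strand in counting is not given, reads of overlapping genes cannot be told apart. The longest of 31 runs held 6 genes, Cp7Fa, Cp7Fb, Cp7Fc, Cp36, Cp38 and otu, which includes the X-linked chorion cluster that is amplified in follicle cells. Log2 fold changes in MSL2 females ranged from -2.92 to -0.48 in this run and from -3.05 to -1.43 in the run of CG32642, Mur11Da, CG15721 and CG12716. In the run of CG15570, Femcoat and Muc4B they ranged from -2.04 to -1.21, and in that of Yp2, Yp1 and CG15312 from -0.66 to -0.20. The remaining run of over 2 genes, CG32625, Rtc1 and Yp3, ranged from -0.14 to 0.47. Over all 193 genes 146 of these values were negative, and whether neighbours shared a sign more often than other genes was not tested. Of the 31 runs, 16 had negative values throughout, 12 were mixed in sign and 3 had no negative value. The last were the pairs CG15044 with CG15043, CG32751 with vanin-like, and CG3004 with Aats-lys.

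In males, 0 of the 193 genes were called between MSL2 males and control males by edgeR. The edgeR background was 0.352% of all genes called higher and 0.459% called lower, so that few calls were made on any chromosome. At an unadjusted p under 0.05 by edgeR stood 7 of the 193, against 1031 of the 13060 genes tested. DESeq2 also called 0 of the 193, and over all genes it called 139 higher and 153 lower. Control males helped choose the genes by their low levels, which can raise fold changes here, so counts and medians are given as a description. They carried TM3, which is not stated for MSL2 males. The median log2 fold change was -0.09, against -0.07 for the autosomal female-biased genes and a median near 0 for all genes. Of those autosomal genes, 4.17% had all MSL2 males above all control males and 18.6% below. Among the 193 genes 4 were above and 31 below (16.1%), with a background of 10.1% of all genes above and 13.4% below. The 4 above were CG15043, CG11403 (0.32), CG32642 (1.15) and AlkB (0.27), none near the threshold. Cp36 was lowest, at 0.354, 0.239 and 0.136 CPM in MSL2 males (-1.21, adjusted p = 0.999, edgeR), where 3 counts correspond to 0.0583 to 0.0652 CPM.

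The difference between MSL2 and control flies was compared between the sexes as an interaction in the same fit. Its female side carries the difference in TM3, and for its male side TM3 is not stated in MSL2 males. The control libraries that chose the genes enter both sides, so counts and medians are given as a description. Of the 193 genes 0 were called by edgeR, with a median of -0.05. The edgeR background was 1.06% of all genes and 5.49% of X-linked genes called higher, and 0.207% of all genes called lower. At an unadjusted p under 0.05 by edgeR stood 9 of the 193, against 1668 of 13060 genes and 625 of 2075 X-linked genes tested. DESeq2 called 2 of the 193 lower, CG32642 and Obp19c. Over all genes, 3 to 117 were called lower across the alternatives. The smallest adjusted p belonged to CG32642, at 19.8, 13.3 and 1.05 CPM in control females, 1, 1.8 and 2.65 in MSL2 females, 0.507, 0.429 and 0.277 in control males and 0.788, 0.782 and 1.11 in MSL2 males. The females overlapped through control female 3, and the difference was -3.75 (adjusted p = 0.209, edgeR). Obp19c (-2.20), CG32523 (-1.42), Cp7Fb (-2.76) and CG14210 (0.32) followed, with adjusted p from 0.231 to 0.335. The difference for CG15043 was 0.35 (adjusted p = 0.513). Without MSL2 female 1 the gene CG8010 was called higher, and without control female 3 CG32642 was called lower.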

How the data were processed

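The submitters' processing notes list TopHat, HTSeq and dm3 without versions; strand handling is not stated there. The authors deposited, per the file headers, raw read counts per RefSeq transcript in an X-linked and an autosomal table, and a normalized column. That deposited column was checked to be a fraction of its own table's total (largest difference 5.00e-10) and was not used further. The transcript with the most counts over all 12 libraries was kept per gene (14161 genes), and CPM used the total over both tables. Counts were tested in R 4.3.3 with edgeR 4.0.16 (TMM, low genes removed by filterByExpr at a minimum count of 10, a quasi-likelihood F test over all 12 libraries, Benjamini-Hochberg adjustment, threshold 0.05), which tested 13060 genes. The steps were tested on simulated data. SE is the absolute log2 fold change over the square root of F. Alternatives included DESeq2 1.42.0, other normalizations, no filter, a replicate block and leaving out each library.

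The members and gene lists were chosen with earlier results of these data known. Genes named are those on role lists, the 5 with the most counts, the 5 with the highest control ratio, those called without overlap, the 5 with the smallest p of the interaction, the nearest to the limit, the 5 least different between MSL2 sexes and the 4 most variable in MSL2 females; others are named as neighbours or as chosen after values were seen. The deposited name of 1 of the 193 genes had become a date and was restored to dec by its identifier. Gene symbols were matched for 192 of the 193 genes. Promoter and protein sequences were not analysed here.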

Additional observations from a re-analysis of the deposited data

How the results depend on the processing

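Across alternatives the female bias in MSL2 flies was stable, with 185 to 189 of the female-biased genes called higher and 0 lower. Of all genes, 4158 to 5520 were called higher and 3714 to 4686 lower between MSL2 females and MSL2 males. CG15043 kept its call in MSL2 females against control females in all 19. The counts of calls between MSL2 and control females changed with the setting. The 1 rise became 2 with TMM from autosomal genes (8.25% of all genes) or with summed transcripts (7.39%) and 3 with DESeq2 (8.61%). It ranged from 1 to 7 with 1 library left out, while rises over all genes ranged from 401 to 1540. The 6 falls became 9 with DESeq2 (7.11% of all genes) and 0 when only the groups compared were fitted (0.395% of all genes), and ranged from 0 to 20 with 1 library left out, while falls over all genes ranged from 129 to 1311. Correlations of same-numbered deviations had both signs (-0.556 to 0.598), which cannot settle whether replicate numbers pair the libraries. A fit with the replicate block gave 2 falls (1.64% of all genes). In males, fitting only the groups compared gave 2 falls, CG1354 and mei-9, and falls over all genes ranged from 17 to 156 across the alternatives. The interaction gave 2 lower with DESeq2, and 0 to 1 higher and 0 to 1 lower with 1 library left out. Over all genes the interaction gave 7 to 304 higher and 3 to 117 lower across the alternatives. At a 5-fold limit the set holds 90 genes. With 1 library left out the log2 fold change in females ranged from -0.31 to 0.03 for Yp3, -0.61 to 0.09 for yl, -0.48 to 0.11 for fs(1)M3 and -0.60 to 0.05 for fs(1)N, positive without MSL2 female 1, and from -0.10 without MSL2 female 3 to 1.25 for Ir7c between the MSL2 sexes. The cause of these shifts was not tested. With 3 libraries a group, genes that vary this much between libraries limit what can be called.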
